A study of Rattus norvegicus with 8 samples.

Results

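Genes of the proteasome and of ubiquitin, NEDD8 and SUMO conjugation were compared between spinal cords of rats with experimental autoimmune encephalomyelitis (EAE), a T cell driven inflammation of the central nervous system, and of healthy rats. They were taken by symbol from the exon array's annotation: names for proteasome subunits (Psma to Psmg), ubiquitin-activating and -conjugating enzymes (Uba, Ube), deubiquitinases (Usp, Uch, Otu), cullins, F-box proteins, Nedd, Sumo and Senp genes. The immunoproteasome subunits Psmb8 and Psmb9 were left out of this set. The rule found 73 genes of 7830 with a symbol of their own, read by 708 probe sets, each of which covers an exon or part of one. Of these genes 71 had at least 1 probe set above the filter on dim signals. The other two, Ube2n and Senp17, have 1 probe set each, with means of 2.80 and 2.61 in EAE and 2.84 and 2.72 in controls on the log2 scale, under the filter's 3.98. No gene of the annotation matched the Otu, Ube3 or Psmg part of the rule. Psme2, Psmb10, Psmb5, Psmb6, Uba7, Ube2l6 and Usp18 are not among the genes found and were not analysed here.

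The EAE group held 4 female virgin Lewis rats aged 16 weeks that had received 50 µg of guinea pig myelin basic protein under the skin at the tail base, emulsified with incomplete Freund's adjuvant that carried mycobacteria at 4.0 mg/ml, 13 days before the cords were taken. The control group held 4 untreated female virgin Lewis littermates of the same age, whose cords were taken at the same time. The controls received neither adjuvant nor antigen, so the effects of injection and of disease cannot be told apart. Each rat gave 1 array of RNA from the whole cord, and the number of arrays, not a read depth, limits the precision.

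The proteasome degrades proteins that carry chains of ubiquitin. Its barrel, the 20S core, has outer rings of alpha subunits and inner rings of beta subunits that hold the proteolytic sites, and it is capped by the 19S particle, which binds ubiquitin, unfolds substrates with ATPases and feeds them in, or by an activator such as PA28. Ubiquitin is activated by an E1 enzyme, passed to an E2 and placed on substrates with an E3 ligase. Cullin ligases are a large class of E3 that use F-box and related proteins to choose substrates and are switched on by NEDD8, a relative of ubiquitin. Deubiquitinases take the chains off again. In the nervous system this machinery maintains synapses and axons, and in immune cells it makes peptides for MHC class I.

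Across the whole set the changes were small and went in both directions. With limma fitted to all genes and a Benjamini-Hochberg adjusted p under 0.05, 10 of the 71 measured genes rose (14.1%) and 16 fell (22.5%), while 45 did not pass. Over all 6961 genes tested 13.7% rose and 17.4% fell, 31.1% together. The median change was -0.08 on the log2 scale among these genes and -0.11 over all genes. A single member, Psme1, changed by 1 or more, as did 7.56% of all genes. The 4 EAE rats lay wholly above the 4 controls in 9 members and wholly below them in 18, where 14.1% and 19.2% of all genes did so (33.2% together). Shares of this size are near the background of the arrays, so the description below is of which members moved. When 1 array was left out in turn, the rises numbered 4 to 11 and the falls 12 to 19. The rises fell to 4 without control 194 or EAE 241, to 5 without control 196 or EAE 217 and to 6 without EAE 218 or EAE 219. Of the calls, 3 of the 10 rises (Psme1, Uba1 and Psmb4) and 11 of the 16 falls passed under each of 17 alternative settings that kept the same threshold. A further setting, which also asked for a change of at least 1, left Psme1 as the single rise and 0 falls by limma.

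**Figure D1:**
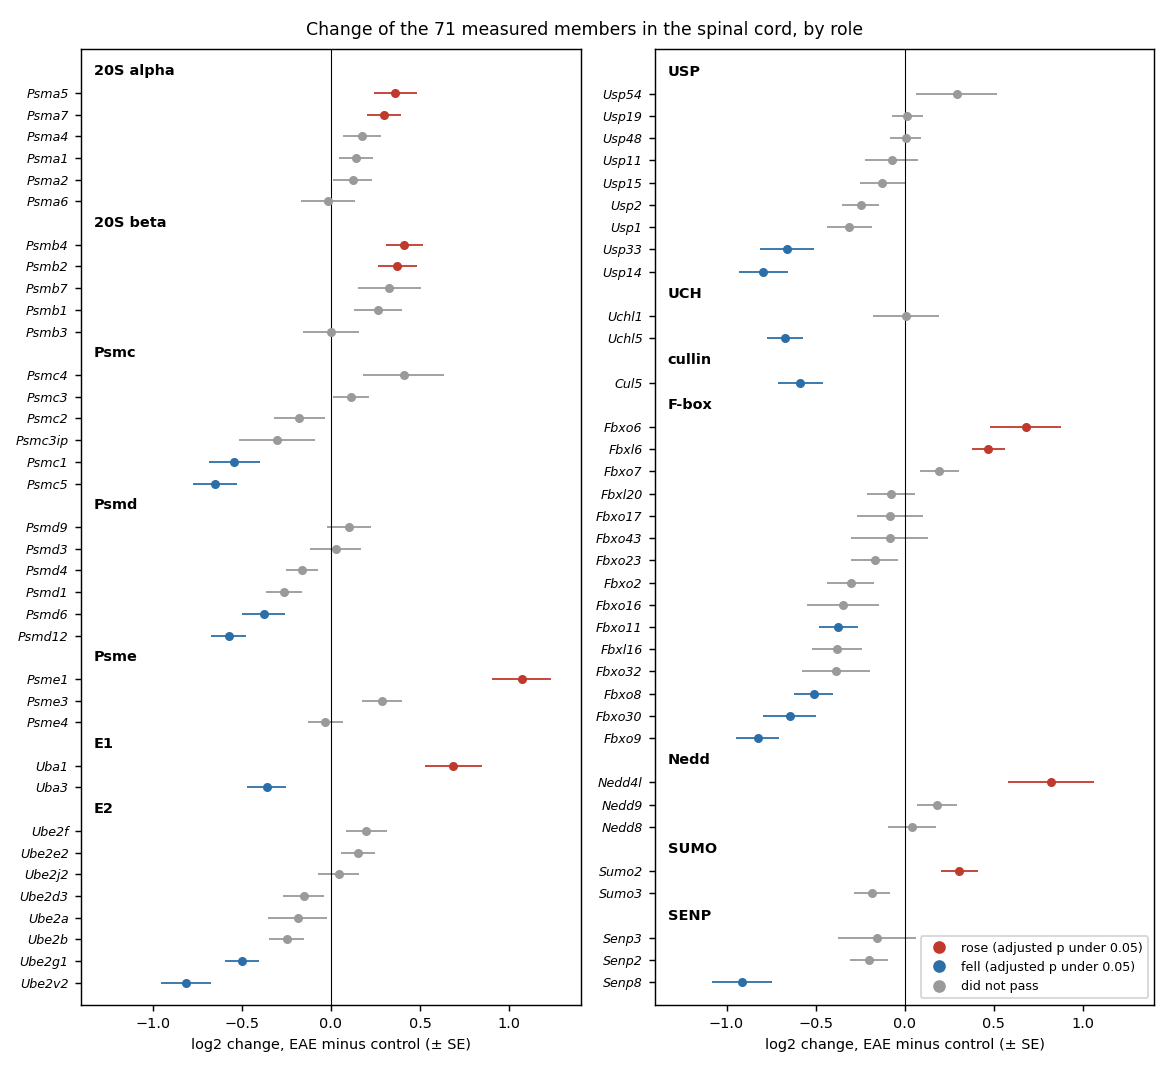
Log2 change, EAE minus control, with SE, of the 71 measured genes, grouped by role and sorted within each group. Red genes rose and blue genes fell at an adjusted p under 0.05, and grey genes did not pass. Psme1 at 1.07 is the largest rise and Senp8 at -0.91 the largest fall, and the rises of the proteasome lie in its alpha, beta and Psme genes while its falls lie in its Psmc and Psmd genes.

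Markers set the frame for these values. All 8 measured genes of a microglia and macrophage list rose, with list means of 8.93 to 9.26 in EAE and 5.36 to 5.67 in controls, and 4 of the 8 lay at the arrays' background in controls. All 5 measured genes of a T cell list rose too, with list means of 6.41 to 6.62 in EAE and 4.14 to 4.51 in controls. Of these, 4 lay at background in controls. Cd4, the one above it, rose most (3.56), and the others rose by 0.98 to 2.29. The cells that carried Cd4 were not tested. Neuronal markers stood at list means of 9.77 to 10.0 in EAE and 10.1 to 10.4 in controls (4 of 8 fell), and oligodendrocyte markers at 8.28 to 8.55 in EAE and 8.71 to 9.21 in controls (5 of 8 fell), so the tissue carried the markers of cord. Of 5 astrocyte markers 3 rose (list means 9.73 to 10.1 in EAE and 9.10 to 9.95 in controls), and neither of 2 endothelial markers passed. The part of these shifts in the changes below was not tested. In whole cord a change in the number of cells of a type and a change in RNA per cell cannot be told apart. Control rat 195 stood apart, whose log2 values had an SD of 2.11 while the other arrays had 2.17 to 2.26, and without it 8 members rose and 19 fell.

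The proteasome activator PA28 gave the largest rise. Psme1, the alpha subunit of PA28, which opens the 20S core and is known as an interferon-gamma target, had 8.09, 8.52, 8.52 and 8.57 in EAE rats 217, 218, 219 and 241, against 7.16, 7.06, 7.60 and 7.60 in control rats 193, 194, 195 and 196 (log2 intensity). Every EAE rat was above every control, and rat 217 was the lowest of the EAE group. The difference was 1.07 ± 0.16 (SE), or 2.10-fold, with an adjusted p of 0.000878 in limma. It is read by 2 probe sets, of which the brighter rose by 1.39 and the dimmer differed by 0.75 without passing (adjusted p = 0.0854). The other activators did not pass. Psme3, the nuclear relative PA28 gamma, averaged 7.21 ± 0.12 in EAE and 6.93 ± 0.14 in controls (SD, n = 4 each), without overlap but with an adjusted p of 0.0747 in limma. Psme4, a large activator known as PA200, differed by -0.03, with a 95% interval from -0.25 to 0.19. For comparison, the immunoproteasome subunits Psmb9 and Psmb8, which replace standard beta subunits, averaged 7.34 ± 0.05 and 6.61 ± 0.32 in EAE and lay at background in controls, at 3.96 ± 0.16 and 4.23 ± 0.19 (SD, n = 4 each).

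Subunits of the 20S core tended upward by small amounts. Of 11 measured alpha and beta genes 4 rose (36.4%, against 13.7% of all genes) and none fell, and their median change was 0.26, against -0.11 over all genes. Psmb4, a structural beta subunit, had 8.23, 8.40, 8.29 and 8.39 in EAE, against 8.04, 8.03, 7.82 and 7.78 in controls. The groups did not overlap, and the difference was 0.41 ± 0.10 (adjusted p = 0.0138). All 7 probe sets of Psmb4 were higher in EAE, but 1 of them rose by 1.35 and the other 6 differed by 0.13 to 0.51. Psmb2, another structural beta subunit, averaged 7.71 ± 0.16 in EAE and 7.34 ± 0.09 in controls (SD, n = 4 each), 1.29-fold higher. The alpha subunits Psma5 (0.36 ± 0.12, SE) and Psma7 (0.30 ± 0.09) also passed, each just under the threshold (adjusted p = 0.0436 and 0.0381 in limma). These 3 smaller rises were lost in most runs without 1 array, with adjusted p up to 0.112 for Psma5, 0.106 for Psma7 and 0.0865 for Psmb2. By the median probe set Psmb2 differed by 0.22 (adjusted p = 0.361).

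The remaining 20S genes lay between -0.02 and 0.33. Psmb7, which carries a proteolytic site of the standard proteasome, had 9.98, 9.98, 9.83 and 10.2 in EAE, against 9.97, 9.83, 9.15 and 9.77 in controls. Control 195 was the lowest value and the groups overlapped (0.33 ± 0.18, adjusted p = 0.190). Without control 195 the difference in Psmb7 was 0.15 (adjusted p = 0.369). Psmb1, Psma4, Psma1 and Psma2 differed by 0.12 to 0.26 and did not pass. Psmb3 and Psma6, each read by 1 measured probe set, differed by -0.0022 and -0.02.

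Of 11 measured Psmc and Psmd genes, the symbols of the 19S particle, 4 fell (36.4%, against 17.4% of all genes) and none rose. The 11 leave out Psmc3ip and include Psmd9, an assembly chaperone. Their median change of -0.18 was near the -0.11 of all genes, and 7 of the 11 had a lower mean in EAE, as had 4309 of all 6961 genes. Of the 4 falls, those of Psmc1 and Psmd6 were lost under some alternatives. Psmc5, one of the ATPases of the base, had 8.36, 8.06, 8.12 and 8.43 in EAE, against 8.81, 8.91, 8.74 and 9.10 in controls. All EAE values lay below all controls, and the fall was 1.57-fold (-0.65 ± 0.13, adjusted p = 0.00339), with all 12 probe sets lower. Psmd12, a subunit of the lid, had 8.98, 8.96, 9.12 and 9.18 in EAE, against 9.62, 9.59, 9.59 and 9.74 in controls, again without overlap, and fell 1.49-fold (adjusted p = 0.00166) with all 11 probe sets lower. The ATPase Psmc1 fell by 0.54 ± 0.14 (adjusted p = 0.0167) and averaged 8.17 ± 0.26 in EAE and 8.71 ± 0.15 in controls. EAE rat 218 was far below the rest of its group at 7.78. One of the 9 probe sets of Psmc1 differed by -1.61, and its change was -0.36 (adjusted p = 0.160) when the gene was summarised by its median probe set. Without control 196 its adjusted p was 0.0541. The lid subunit Psmd6 passed narrowly (-0.38 ± 0.12, adjusted p = 0.0382), with EAE rat 241 (8.89) above control 195 (8.87). Its call was lost in 8 of the 17 settings, with an adjusted p of 0.106 in limma without control 196. After centring on the tested genes it was 0.124. Its median probe set gave -0.65.

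Other genes of the cap did not pass. Psmd1, a scaffold of the base, was lower in all 18 of its probe sets (-0.26 ± 0.10, adjusted p = 0.0756). The ubiquitin receptor Psmd4 differed by -0.16, without overlap between the groups, although 6 of its 10 probe sets were higher in EAE. The ATPase Psmc2 differed by -0.18. The ATPases Psmc3 and Psmc4 had higher means in EAE, by 0.11 and 0.41. In Psmc4 the controls ran from 6.32 (rat 195) to 7.55 and enclosed all EAE values. Psmd3 and Psmd9, the second of which is an assembly chaperone, differed by 0.03 and 0.10. The direction of Psmd3 turned with the choice of arrays. Psmc3ip, a meiotic recombination factor that shares only its symbol's first letters with the ATPases, lay at background in both groups.

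**Figure D2:**
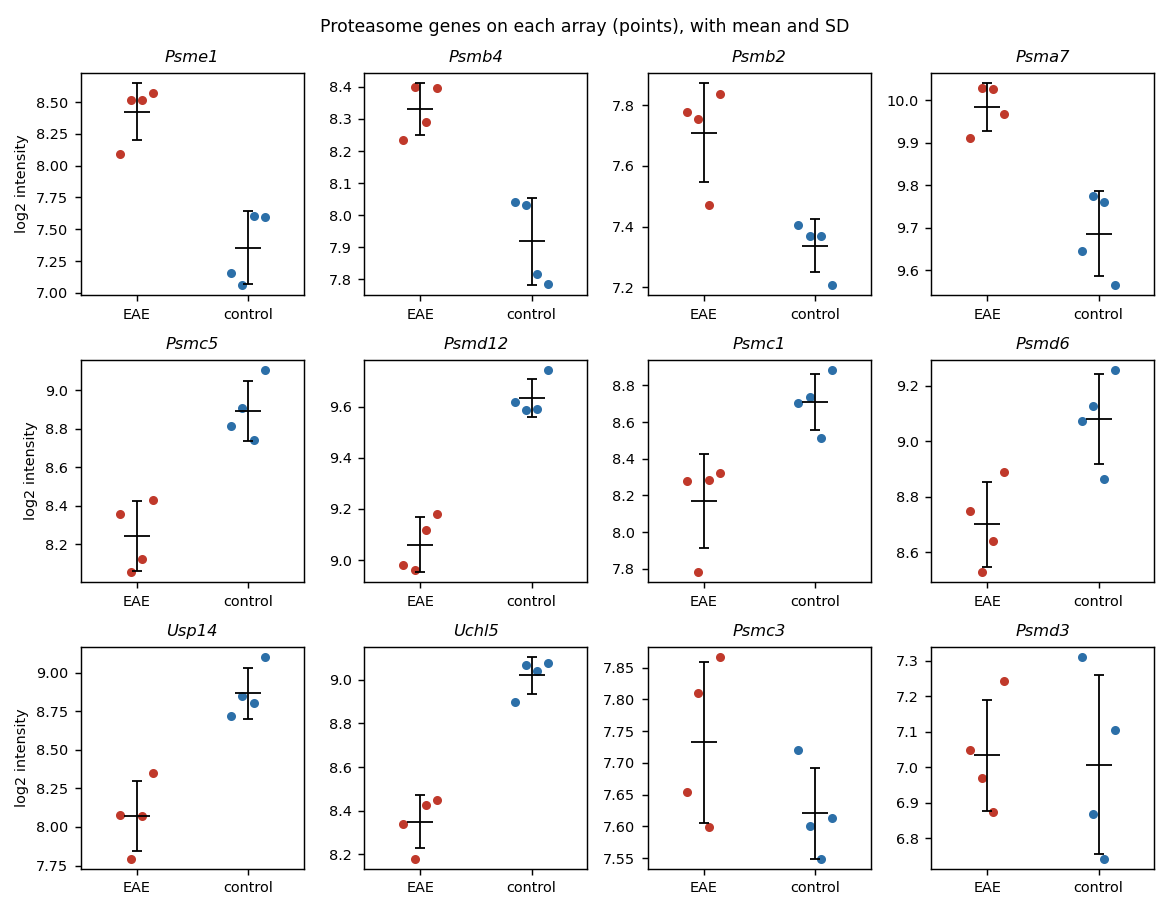
Log2 intensity of 12 proteasome genes on each array (points), EAE left and control right, with the group mean and SD as bars, each panel on its own scale. The 4 EAE points lie above all controls in Psme1, Psmb4, Psmb2 and Psma7 and below all controls in Psmc5, Psmd12, Psmc1, Usp14 and Uchl5, while Psmd6, Psmc3 and Psmd3 overlap.

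Usp14 and Uchl5, deubiquitinases that dock on the 19S particle, both fell. The pair is not 1 of the role groups, so its count is a description only. Of 11 measured Usp and Uch genes 3 fell (27.3%, against 17.4% of all genes) and none rose. Usp14, which trims ubiquitin chains at the proteasome and is needed for synaptic function in mice, had 8.08, 7.79, 8.07 and 8.35 in EAE, against 8.72, 8.85, 8.80 and 9.10 in controls. No EAE value reached the lowest control, and the level was 1.73-fold lower (-0.79 ± 0.14, adjusted p = 0.00185). All 16 probe sets of Usp14 were lower and 10 of them passed by themselves. Uchl5, which is recruited by the 19S subunit Adrm1, had 8.34, 8.18, 8.43 and 8.45 in EAE, against 8.90, 9.07, 9.04 and 9.08 in controls. It was 1.59-fold lower (-0.67 ± 0.10, adjusted p = 0.000833), with all 15 probe sets lower and 7 passing. Adrm1 itself differed by 0.23 ± 0.10 and did not pass (adjusted p = 0.126).

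On each array the mean of the 11 core genes lay 0.16 to 0.29 above the control mean in EAE rats, and between -0.08 and 0.07 of it in controls. The mean of the 11 cap genes, Psmd9 included, lay between -0.27 and -0.09 in EAE rats and between -0.20 and 0.12 in controls. Control 195 gave the -0.20 and was the one control within the EAE range. Over all genes tested the EAE means were 0.01 to 0.04, but the median change was -0.11, near the cap's median of -0.18. The core thus lay above the array as a whole by either measure. The cap lay below its mean but near its median. These means are descriptions over genes chosen by name.

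**Figure D3:**
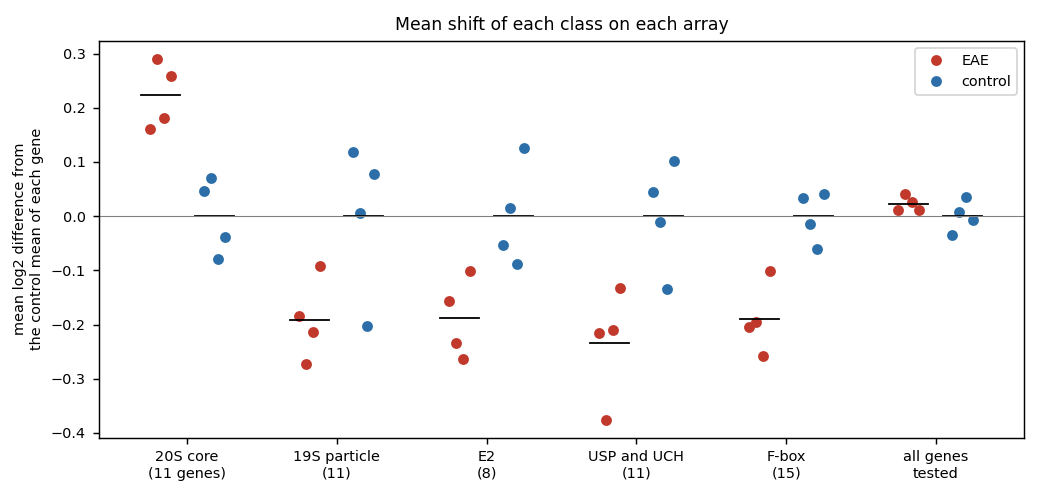
Mean log2 difference from each gene's control mean, by array, for 5 classes and for all genes tested, with EAE red and left, controls blue and right, and lines at the group means. The 20S core sits at 0.16 to 0.29 in EAE, whereas the 19S particle, E2, USP and UCH and F-box classes sit below 0 in all 4 EAE rats. The 19S class holds Psmc and Psmd genes by symbol, with the assembly chaperone Psmd9 and without Psmc3ip. Control 195 is below 0 in each of these classes too, and in USP and UCH it (-0.135) lies below EAE rat 241 (-0.133). The median change over all genes was also below 0, at -0.11.

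Promoters of 4 of these genes are printed, picked by hand after their values were seen. They belong to the core activator and a core subunit, which rose, and to the docked deubiquitinases, which fell. Each is the RefSeq window of 300 bases in build GRCr8, from 250 bases before to 50 from the gene's start, read along the gene's strand. Capitals mark matches to the antioxidant response element searched as TGACNNNGC, the type of site bound by factors such as Nfe2l1 and Nfe2l2 that act on proteasome genes.
Psme1, chr15:33038721-33039020, plus strand: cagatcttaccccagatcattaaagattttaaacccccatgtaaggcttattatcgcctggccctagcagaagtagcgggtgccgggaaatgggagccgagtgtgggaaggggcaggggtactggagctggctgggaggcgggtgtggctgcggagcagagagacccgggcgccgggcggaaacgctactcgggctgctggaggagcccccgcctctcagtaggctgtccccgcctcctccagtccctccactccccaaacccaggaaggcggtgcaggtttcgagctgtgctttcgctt
Psmb2, chr5:144254808-144255107, plus strand: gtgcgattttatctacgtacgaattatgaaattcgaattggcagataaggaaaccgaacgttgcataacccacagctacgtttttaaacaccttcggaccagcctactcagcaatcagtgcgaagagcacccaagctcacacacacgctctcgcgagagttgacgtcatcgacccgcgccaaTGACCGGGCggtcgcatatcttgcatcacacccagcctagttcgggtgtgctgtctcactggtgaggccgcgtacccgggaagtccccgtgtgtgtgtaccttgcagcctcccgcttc
Usp14, chr18:1330287-1330586, minus strand: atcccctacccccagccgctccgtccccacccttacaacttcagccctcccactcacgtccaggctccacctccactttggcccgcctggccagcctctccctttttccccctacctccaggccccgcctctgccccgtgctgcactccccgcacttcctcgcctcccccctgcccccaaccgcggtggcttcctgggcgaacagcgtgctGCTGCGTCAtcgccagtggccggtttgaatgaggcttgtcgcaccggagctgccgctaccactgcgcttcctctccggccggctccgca
Uchl5, chr13:58070826-58071125, plus strand: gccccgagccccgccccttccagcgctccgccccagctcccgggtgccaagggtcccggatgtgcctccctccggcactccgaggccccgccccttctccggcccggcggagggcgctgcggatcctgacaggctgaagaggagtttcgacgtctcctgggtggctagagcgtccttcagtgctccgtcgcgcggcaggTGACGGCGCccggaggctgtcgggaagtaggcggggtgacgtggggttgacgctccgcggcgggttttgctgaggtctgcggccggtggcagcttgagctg

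The matches begin at -68 in Psmb2, -39 in Usp14 and -51 in Uchl5, counted from 0 at the start base, and Psme1 holds none. All motifs were searched on both strands in the 64 member promoters the table holds. The antioxidant element stood in 12 of the 64 (18.8%) and in 12.1% of all 33469 promoters. Among members with a promoter it stood in 1 of the 8 that rose and in 3 of the 13 that fell (Senp8 besides Usp14 and Uchl5). The printed windows were picked by hand, so the matches among them do not give the share in the set. The interferon-stimulated response element stood in 4 of 64 (Fbxo7, Psma4, Psmb3 and Ube2d3; 3.92% of all promoters) and the STAT site TTCNNNGAA in 2 (Psmd3 and Uchl1; 8.87% of all). None of the 4 printed windows holds either, and matches of different motifs did not overlap. On the rising side the antioxidant match rests on Psmb2 alone, whose call was lost under 7 of the 17 settings. A match is a run of letters, not a site shown to be bound.

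Uba1 rose at the top of the conjugation cascade. Uba1, the principal E1 that charges ubiquitin, had 8.47, 8.53, 8.41 and 8.54 in EAE, against 8.23, 7.82, 7.42 and 7.72 in controls. All EAE rats lay above all controls, and the spread was wide among controls and narrow in EAE. The level was 1.61-fold higher (0.69 ± 0.16, adjusted p = 0.0083 in limma), and without control 195, the lowest, the difference was 0.56 (adjusted p = 0.00983). Of its 26 measured probe sets 25 were higher in EAE and 9 passed. Its probe sets changed by different amounts in diffSplice (adjusted p = 0.000523). No single probe set passed when each was tested against the mean of the others. A probe set dim in controls differed by 1.72 and the brightest by 0.20.

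Of 8 measured E2 genes 2 fell (25%, against 17.4% of all genes) and none rose, and the median change was -0.17, against -0.11 over all genes, so these shares are near the background. Ube2v2, an E2 variant without a catalytic site of its own that builds signalling chains together with Ube2n, had 8.96, 8.77, 9.29 and 9.19 in EAE, against 9.73, 9.85, 9.79 and 10.1 in controls. The groups were apart, and all 4 of its probe sets fell (-0.81 ± 0.14, adjusted p = 0.00168). Its partner Ube2n could not be compared, since its only probe set was dim. Ube2g1, an E2 of degradative chains, fell 1.41-fold (7.31 ± 0.06 in EAE and 7.81 ± 0.10 in controls, SD, n = 4 each; adjusted p = 0.00332). Of its 7 probe sets 5 were lower and 2 higher in EAE, and the median probe set gave -1.15. Ube2b, a DNA repair E2, differed by -0.25 (adjusted p = 0.0756), and Ube2a, Ube2d3, Ube2j2, Ube2e2 and Ube2f by -0.19 to 0.20.

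Among deubiquitinases outside the proteasome Usp33, which acts on membrane receptors, had 8.94, 8.67, 9.12 and 9.07 in EAE, against 9.34, 9.45, 9.81 and 9.86 in controls. It was lower in every EAE rat (-0.66 ± 0.15, adjusted p = 0.00864), although with the median of its 5 probe sets its adjusted p was 0.128. The other 7 Usp genes did not pass: Usp1 (-0.31), Usp2 (-0.25), Usp15 (-0.13), Usp11 (-0.07), Usp48 (0.00), Usp19 (0.01) and Usp54 (0.29). Usp48 is read by 30 measured probe sets and its interval ran from -0.19 to 0.20. Uchl1, an abundant deubiquitinase of neurons, had 8.98, 8.64, 8.91 and 9.16 in EAE, against 9.34, 8.80, 8.48 and 9.05 in controls. Its groups overlapped throughout, and the difference of 0.01 had an interval from -0.41 to 0.42, which does not show that its level was the same.

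Genes of the NEDD8 cycle were grouped after their values were seen, so their count, 3 falls among 5 measured (17.4% of all genes fell), is a description only. Senp8, the protease that matures NEDD8 and removes it from proteins, had 6.27, 6.42, 6.69 and 6.72 in EAE, against 7.20, 7.16, 7.66 and 7.73 in controls. The groups did not overlap, and at 1.88-fold lower this was the largest fall of the set (-0.91 ± 0.17, adjusted p = 0.00257), read by 2 probe sets of which 1 passed. Cul5, a cullin that works with SOCS-box proteins to end cytokine signals, had 8.56, 8.27, 8.44 and 8.49 in EAE, against 8.75, 9.01, 9.13 and 9.21 in controls. It fell by 0.59 ± 0.12 (adjusted p = 0.00554), with all 20 probe sets lower and 7 passing. Uba3, the catalytic subunit of the NEDD8 E1, fell by 0.36 ± 0.11 (adjusted p = 0.0323), a call that was lost without any 1 of 6 arrays (adjusted p up to 0.0893). Its median probe set gave -0.56. Nedd8 itself had 8.81, 9.43, 9.12 and 9.22 in EAE, against 9.19, 9.13, 9.01 and 9.08 in controls, with the controls inside the EAE range (0.04 ± 0.13). The NEDD8 E2 Ube2f differed by 0.20 and did not pass.

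Of 15 measured F-box genes 4 fell (26.7%, against 17.4% of all genes) and 2 rose (13.3%, against 13.7%), shares near the background. A lower mean in EAE was seen in 12 of the 15 and in 4309 of all 6961 genes, and the median change was -0.30. Fbxo9, a substrate receptor of cullin ligases, had 7.56, 7.81, 7.62 and 7.82 in EAE, against 8.58, 8.48, 8.33 and 8.74 in controls. It was 1.77-fold lower without overlap (-0.83 ± 0.12, adjusted p = 0.000599), the smallest p of the set, with all 15 probe sets lower. Fbxo30 fell by 0.65 ± 0.15 and Fbxo8, which carries a Sec7 domain of Arf regulators, by 0.51 ± 0.11, both without overlap. Fbxo11, a receptor known for targeting Bcl6, fell by 0.37 ± 0.11, but its adjusted p of 0.0295 was lost in 8 of those 17 settings.

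Fbxo6, which binds the sugars of misfolded glycoproteins, had 6.54, 6.01, 6.40 and 6.32 in EAE, against 6.15, 5.67, 5.17 and 5.56 in controls. EAE rat 218 was below control 193, so the groups overlapped. The rise of 0.68 ± 0.20 (adjusted p = 0.0269) was lost without control 194, control 196 or EAE 217, 219 or 241 (adjusted p 0.0558 to 0.0768). It was also lost in limma without variance moderation (adjusted p = 0.0780). Without control 195 the rise was 0.52. Its relative Fbxo2, the neuronal sugar-binding F-box protein, averaged 6.49 ± 0.15 in EAE and 6.80 ± 0.21 in controls (adjusted p = 0.106 in limma). Fbxl6 rose by 0.47 ± 0.10 without overlap (adjusted p = 0.00442), with means of 5.50 in EAE and 5.03 in controls that are not far above the background of the arrays (4.70 in EAE and 4.77 in controls, the 95th percentile of olfactory receptor genes). Its change ranged from 0.24 with no filter on dim probe sets to 1.04 with the stricter one, and it did not pass by the median probe set (adjusted p = 0.104). The muscle atrophy factor Fbxo32 (-0.38), Fbxo7 (0.19), known from inherited parkinsonism, Fbxl16, Fbxo16, Fbxo17, Fbxl20 and Fbxo43 did not pass, nor did Fbxo23, whose current symbol Tspan17 is that of a tetraspanin.

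Nedd4l, a HECT ligase that removes sodium channels from the membrane, had 6.71, 6.46, 6.57 and 6.99 in EAE, against 6.40, 5.86, 5.14 and 6.04 in controls. The groups were apart, though the highest control, rat 193, was close to the lowest EAE rat, 218. The rise was 1.77-fold (0.82 ± 0.24, adjusted p = 0.0269), and all 17 probe sets were higher. Its adjusted p was 0.0581 to 0.0772 without control 194, EAE 217 or EAE 241, and 0.0855 in limma without variance moderation. Without control 195 the rise was 0.58. Nedd9, a scaffold of integrin signalling that shares the name without being a ligase, differed by 0.18 and did not pass. In the SUMO system Sumo2 passed narrowly, at 10.4 ± 0.07 in EAE and 10.1 ± 0.14 in controls (SD, n = 4 each; 0.31 ± 0.10, adjusted p = 0.0481 in limma). None of its 5 probe sets passed alone, 1 of them differed by 1.11, and the median of the 5 gave 0.05 (adjusted p = 0.832). Sumo3 (-0.18) and the SUMO proteases Senp2 (-0.20) and Senp3 (-0.16) did not pass.

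**Figure D4:**
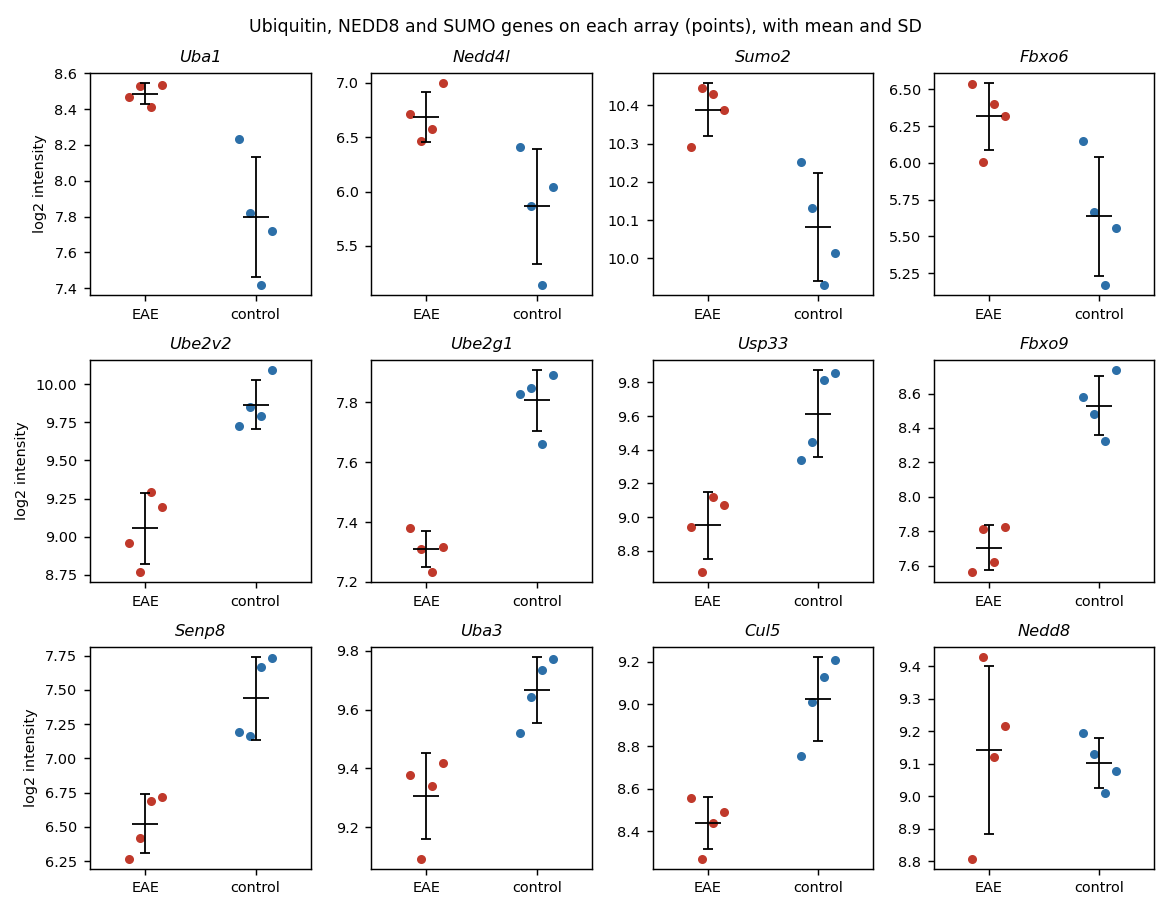
Log2 intensity of 12 ubiquitin, NEDD8 and SUMO genes on each array (points), EAE left and control right, with the group mean and SD as bars, each panel on its own scale. Uba1, Nedd4l and Sumo2 have all 4 EAE points above all controls, Ube2v2, Ube2g1, Usp33, Fbxo9, Senp8, Uba3 and Cul5 have them below, and Fbxo6 and Nedd8 overlap.

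Single probe sets show how evenly a gene moved. Of 661 measured probe sets of the set, 30 rose (4.54%) and 67 fell (10.1%) at an adjusted p under 0.05. Of all 62176 measured probe sets 10.2% rose and 10.2% fell. In limma's diffSplice test, which asks whether probe sets of a gene change by different amounts, 13 of 65 testable members passed, against 26.6% of all genes. A second limma test compared each probe set with the mean of its gene's other probe sets, with a moderated variance for each probe set. Its p was adjusted over probe sets, and a gene passed when any 1 of its probe sets did. By this test 4 members passed (20.3% of all genes did), and Fbxl6 alone passed both. The tests differ in statistic and adjustment as well as in variance, so their counts do not show what the variance model changes. In Fbxl6 3 of 8 probe sets rose, by 0.94 to 1.37, and 2 had lower means in EAE. Usp19 (adjusted p = 0.0171 in diffSplice), an ER-anchored deubiquitinase, and Psmd3 (adjusted p = 0.0122) changed little as whole genes but held a probe set that differed from the rest by -1.30 and -1.04. Those 2 probe sets stood at 4.29 and 4.31 in EAE and at 5.53 and 5.23 in controls, near the background. Psmb4 (1.09), Uba1 (1.08) and Sumo2 (1.01) held a probe set that differed upward by as much as given in parentheses. Positions of the probe sets along the genes were not used here.

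**Figure D5:**
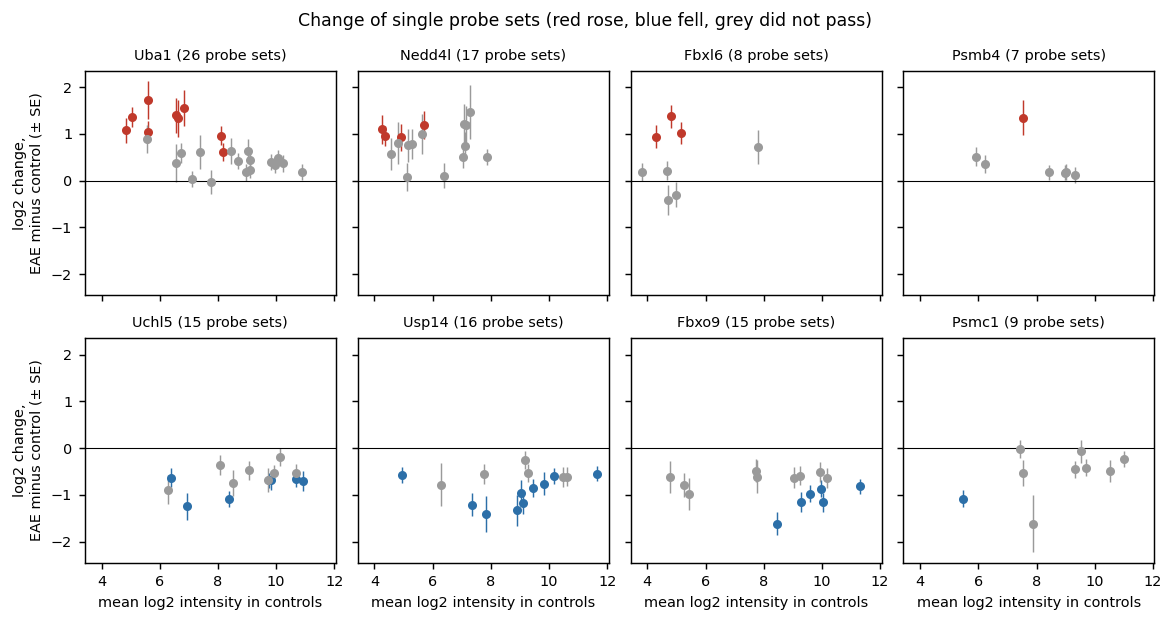
Change of each measured probe set, EAE minus control, with SE, against its mean log2 intensity in controls, for 8 genes on common axes. Red probe sets rose, blue ones fell and grey ones did not pass. In Uba1 the dim probe sets reach 1.72 and the brightest lies at 0.20, in Psmb4 a single probe set lies at 1.35, and in Uchl5, Usp14 and Fbxo9 every probe set lies below 0.

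Other genes of the pathway, from a list of 77 of which 39 were measured, gave 9 rises and 5 falls with a median change of 0.05, where 13.7% of all genes rose and 17.4% fell. The falls included Cand1, which exchanges the substrate receptors of cullin ligases (-0.52 ± 0.11, adjusted p = 0.00683 in limma). Cops2, of the complex that removes NEDD8 from cullins, fell by less (-0.38 ± 0.11, adjusted p = 0.0300). Skp1, the adaptor of F-box proteins, passed narrowly (-0.32 ± 0.11, adjusted p = 0.0474). The ligases Siah1a (-0.57, adjusted p = 0.0348) and Pias2 (-0.29, adjusted p = 0.0370) also fell. The alternative settings were not examined for genes of this list. Siah1a is read by 2 measured probe sets, its groups overlapped, and its EAE mean of 4.86 was near the background of 4.70. Other partners of cullins on the list did not pass, among them Btrc (-0.27), Cops3 (-0.03), Keap1 (-0.02), Vhl (0.06), Cops4 (0.08) and Ddb1 (0.47). The rises included the ligase Cblb, which restrains lymphocyte activation (2.57-fold), Atg7, the E1 of autophagy (2.03-fold), and the stress response factor Nfe2l2 (3.63-fold). Irf1, which mediates interferon responses, the peptide transporter Tap1 and the ligase Birc3 also rose, with means of 7.03, 6.54 and 6.08 in EAE. They lay at background in controls, so no fold is given for them.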

How the data were processed

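The authors deposited log2 probe set intensities for 8 arrays. Per the submitters' processing notes the tools were Partek, RMA and the Affymetrix Expression Console, with neither their order nor their versions; no source used here gives a genome build. Array means were nearly equal, and pairs of arrays correlated at 0.890 to 0.984. Symbols came from the platform's annotation, 72 of 73 current and 1 updated through a synonym. A probe set counted as measured when at least 4 arrays reached the 25th percentile over the whole table, and a gene's value is the mean of its measured probe sets. Changes, EAE minus control, were tested with limma 3.58.1 in R 4.3.3 (lmFit, eBayes, 2-sided, Benjamini-Hochberg over 6961 genes or 62176 probe sets) and exon unevenness with diffSplice over 5563 genes, and the steps were tested on simulated data. Figures used matplotlib 3.10.9. The rule for names took the 12 largest rises and falls without overlap, the top changes per role, fixed subunits and uneven genes; members outside it were named to account for all, after their values were seen. The genes, the lists and the role groups were chosen with earlier results of these data known, and the NEDD8 group after the values were seen. Alternatives covered filters, normalization, variance model, weights, gene summary and leaving out arrays.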

Additional observations from a re-analysis of the deposited data

Results flagged for a closer look

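In 3 of 66 groups of 4 values of the genes named by rule, 1 rat lay far from the other 3 of its group (a gap beyond Dixon's 95% critical value), about what chance gives at 1 group in 20. Psme1 was 8.09 in EAE rat 217, against 8.52 to 8.57 in the other EAE rats, still above all controls. Psmc1 was 7.78 in EAE rat 218, against 8.28 to 8.32 in the others of that group. Psma5 was 8.81 in EAE rat 217, against 9.11 to 9.15, and that value overlaps the controls.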

How the results depend on the processing

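No paired analysis was possible because EAE and control rats share no numbers in the labels. The labels also do not say which litter each rat came from, so litter was not modelled. Main counts were 10 rises and 16 falls among members, 30 rises and 67 falls among their probe sets, and 13 uneven members. Counts were within a factor of 1.5 of these under quantile normalization, centring on array medians, both filter settings and no variance moderation. The median of probe sets per gene gave 5 rises. A change of at least 1 left 1 rise and 0 falls by limma. Array weights gave 49 rising and 106 falling probe sets, and the test of each probe set against its gene's others gave 4 uneven members. Chosen after seeing the data, leaving out control 195 and EAE 218 gave 6 rises among members and 16 among probe sets, and centring on the tested genes 41 falling probe sets. Leaving out 1 array gave 4 to 11 and 12 to 19 members, 11 to 49 and 27 to 76 probe sets, and 3 to 28 uneven members. The 28 came without control 193 and the 3 without control 196. Over all genes the uneven count moved the same way, from 1482 to 2070 without control 193 and to 841 without control 196. The causes were not tested. Changes of near 0 turned sign without passing. Uchl1 was -0.025 after median centring, -0.047 without control 195 and EAE 218 and -0.14 to 0.15 without 1 array. Nedd8 was -0.061 with array weights, -0.086 without control 195 and EAE 218 and -0.055 to 0.15 without 1 array. Psmd3 was -0.0032 after median centring, -0.039 without control 195 and EAE 218 and -0.061 to 0.13 without 1 array. Usp19 was -0.015 after quantile normalization and -0.016 after median centring. Besides Uba1, Psme1 and Psmb4, the rises lost their call in 1 (Fbxl6) to 11 (Psma5, Sumo2) of the 17 settings with the same threshold, and Psme3 passed with array weights (adjusted p = 0.0290) and after centring on the tested genes (0.0408).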

Other observations

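Across the 71 measured members the change correlated weakly with the level in controls (Pearson r = -0.17 across genes, against -0.20 across 6961 genes), given as a description, since genes on the same arrays are not independent replicates. Usp54 was 8.39 ± 0.14 in EAE and 8.10 ± 0.53 in controls (SD, n = 4 each), with control 195 at 7.43.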
